A study of Mus musculus with 12 samples.

Results

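The genes described here are 10 targets of YAP and TEAD and components of Hippo feedback, taken by gene symbol from a table of 55141 mouse genes. They are *Ccn1*, *Ccn2*, *Ankrd1*, *Axl* and *Crim1*, which are read as outputs of YAP, and *Amotl1*, *Amotl2*, *Lats1*, *Lats2* and *Ajuba*, which act on the pathway itself. All 10 symbols were found. Bulk RNA-seq was performed on gastruloids, stem cell aggregates that form germ layers and a body axis in culture. They were made from 300 mouse embryonic stem cells of a 129/SVEV line and exposed to 3 µM CHIR 99021, a Wnt agonist, for 24 h from 48 h after seeding. Embedding took place 72 h or 96 h after seeding, in a dextran hydrogel of 1.0 mM or, stiffer, of 1.5 mM. All gastruloids were grown in N2B27, freed from the gel with dextranase and collected at 120 h, so gastruloids embedded at 72 h had spent longer in the gel. Each of the 4 groups had 3 libraries, each from a pool of about 30 gastruloids. All groups were embedded and share 1 cell line, so a difference between groups is a difference between embedded gastruloids. The study's methods describe all replicates as biological.

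The Hippo pathway is a kinase cascade in which MST kinases activate LATS kinases, which phosphorylate the coactivators YAP and TAZ and keep them out of the nucleus. Unphosphorylated YAP and TAZ enter the nucleus, bind TEAD transcription factors and switch on genes of cell-matrix contact, growth and cytoskeleton. Some of these targets, such as LATS2 and angiomotin-like proteins, restrain YAP in turn and form a negative feedback. YAP also responds to stiffness, cell shape and crowding, which is why its targets are often read as a record of the mechanical environment.

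TEAD factors bind a short motif around GGAATG. Among the promoters that RefSeq places on build GRCm38.p6, the 250 bases before the transcript start were searched on both strands, so a match reads GGAATG or CATTCC. 9 of the 10 genes had an entry, and 6 of these 9 (*Ccn1*, *Amotl2*, *Ankrd1*, *Ajuba*, *Axl* and *Crim1*) held a match, against 14.4% of 27025 genes and 12.6% of 32851 promoters. *Amotl1*, *Lats1* and *Lats2* held none in this window. The RefSeq starts used for *Amotl1*, *Amotl2*, *Lats2* and *Ankrd1* lie inside the gene as the GENCODE M21 annotation places it. Their windows therefore do not cover the bases before the outermost annotated start. The promoters of *Ccn1*, *Amotl2*, *Ajuba* and *Axl* are shown because the differences between groups below concern these genes, and that of *Ankrd1* because it holds 2 matches although the gene was not expressed at a testable level. Capitals mark the match.
*Ccn1* (chr3:145649986-145650235, minus strand): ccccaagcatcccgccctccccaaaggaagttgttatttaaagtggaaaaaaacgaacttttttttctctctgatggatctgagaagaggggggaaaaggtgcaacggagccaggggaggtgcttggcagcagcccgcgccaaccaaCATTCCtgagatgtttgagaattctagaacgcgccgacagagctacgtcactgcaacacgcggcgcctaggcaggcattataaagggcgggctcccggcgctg
*Amotl2* (chr9:102717554-102717803, plus strand): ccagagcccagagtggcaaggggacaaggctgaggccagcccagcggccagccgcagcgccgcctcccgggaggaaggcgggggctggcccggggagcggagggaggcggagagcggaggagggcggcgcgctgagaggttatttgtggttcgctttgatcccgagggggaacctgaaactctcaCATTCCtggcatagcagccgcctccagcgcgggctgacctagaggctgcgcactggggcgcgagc
*Ajuba* (chr14:54577662-54577911, minus strand): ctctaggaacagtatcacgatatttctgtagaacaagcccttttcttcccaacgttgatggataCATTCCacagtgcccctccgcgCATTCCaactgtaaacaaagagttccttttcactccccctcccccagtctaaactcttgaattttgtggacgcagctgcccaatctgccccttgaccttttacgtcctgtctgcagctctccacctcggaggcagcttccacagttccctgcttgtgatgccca
*Axl* (chr7:25788734-25788983, minus strand): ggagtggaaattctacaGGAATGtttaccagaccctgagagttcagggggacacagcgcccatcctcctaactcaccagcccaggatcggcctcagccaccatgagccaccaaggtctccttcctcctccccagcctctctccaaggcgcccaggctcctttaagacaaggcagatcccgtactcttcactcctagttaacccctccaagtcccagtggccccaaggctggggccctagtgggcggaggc
*Ankrd1* (chr19:36119845-36120094, minus strand): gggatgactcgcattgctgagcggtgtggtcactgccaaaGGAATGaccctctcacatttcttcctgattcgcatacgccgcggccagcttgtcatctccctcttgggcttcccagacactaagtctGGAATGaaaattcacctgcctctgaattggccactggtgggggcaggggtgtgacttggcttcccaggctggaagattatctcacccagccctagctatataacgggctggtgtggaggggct

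Counted back from the RefSeq start, the match began 103 bases before the start of *Ccn1*, 65 bases before that of *Amotl2* and 233 bases before that of *Axl*. *Ajuba* held 2 matches, which began 186 and 164 bases before its start. No promoter of the 9 genes held the AP-1 motif, TGACTCA or TGAGTCA, found in 4.46% of all promoters, or the CArG box of SRF, found in 1.47%. These matches are a description of letters and not of binding.

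The libraries held 23011791 to 27609422 counts each, and mitochondrial genes took 1.68% to 3.02% of them. Both 1.5 mM groups held a library rich in 1 feature, CT010467.1, which took 6.12% of counts (95% Wilson interval 6.11% to 6.13%, counting error only) in replicate 1 of the 72 h group and 4.21% (4.20% to 4.21%) in replicate 2 of the 96 h group. In the other 10 libraries the most abundant feature took at most 2.67%. CT010467.1 was also the most abundant feature in every 72 h 1.0 mM library, at 1.04%, 2.08% and 2.67%. The same held for replicate 2 of the 72 h 1.5 mM group (1.25%) and replicate 1 of the 96 h 1.5 mM group (1.52%). Lists of cardiac, endothelial, endoderm, somite, tail bud, neural and pluripotency markers had no gene at 0 in all libraries of a group. In these bulk samples, fewer cells of a type and less RNA per cell cannot be told apart.

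Levels of the 10 genes were first compared per length, in FPKM over the 12 libraries. *Ajuba*, which encodes a LIM protein that binds and restrains LATS kinases, and *Amotl1*, which encodes an angiomotin-like scaffold of cell junctions, were the most abundant at 14.5 ± 1.99 and 14.1 ± 2.01 FPKM (mean ± SD, n = 12). *Amotl2*, a further angiomotin-like scaffold, stood at 10.7 ± 2.72 FPKM. *Lats1*, one of the pair of LATS kinases, stood at 7.97 ± 0.545 FPKM, more than its paralogue *Lats2* at 2.53 ± 0.254 FPKM. Feedback genes thus held the 4 highest places.

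The output genes stood below *Lats1* in mean FPKM, although *Ccn1* and *Axl* stood above *Lats2*. *Ccn1*, which encodes a secreted matricellular protein also called CYR61, stood at 5.58 ± 1.65 FPKM and *Axl*, a receptor tyrosine kinase, at 3.93 ± 0.729 FPKM. *Crim1*, which encodes a transmembrane protein that binds BMPs, stood at 1.76 ± 0.258 FPKM, and *Ccn2*, the matricellular factor also called CTGF, at 1.38 ± 0.450 FPKM. Between neighbours in this order the ranges over libraries did not overlap for *Axl* over *Lats2*, for *Lats2* over *Crim1*, where the gap was narrow (2.161 against 2.16 FPKM), and for *Ccn2* over *Ankrd1*. All other neighbours overlapped.

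*Ankrd1*, which encodes a cardiac ankyrin repeat protein and is a common reporter of YAP in cultured cells, was at 0 counts in 9 of 12 libraries and at 1 count in the other 3. A count of 0 allows up to 3 counts, which is 0.109 to 0.130 CPM (counts scaled to the library total) in these libraries. It passed no filter on low counts and was not tested. The other 9 genes were tested in every comparison.

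The factors that drive these genes were present throughout. *Tead2* stood at 258 ± 13.0 FPKM, *Yap1* at 57.8 ± 4.55 FPKM, *Tead1* at 13.8 to 26.3 FPKM, *Tead3* at 13.3 ± 1.10 FPKM and *Wwtr1*, which encodes TAZ, at 6.61 ± 0.734 FPKM. *Tead4* was low, at 1.79 ± 0.371 FPKM. Of the VGLL cofactors, which compete with YAP for TEAD, *Vgll4* reached 8.93 ± 2.25 FPKM, while *Vgll1*, *Vgll2* and *Vgll3* had at most 10 counts in any library.

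**Figure D1:**
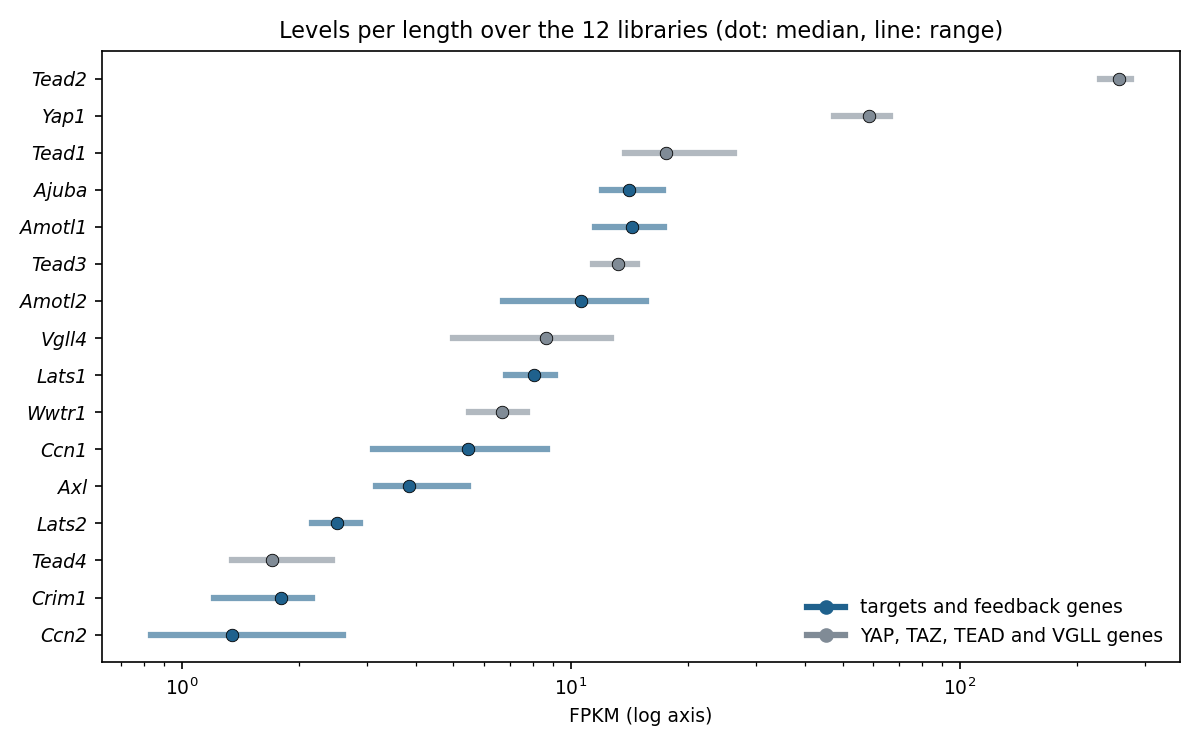
Levels per length, in FPKM on a log axis, of the targets and feedback genes (blue) and of the YAP, TAZ, TEAD and VGLL genes (grey), with a dot at the median and a line over the range of the 12 libraries. *Ankrd1*, *Vgll1*, *Vgll2* and *Vgll3*, each below a mean of 0.1 FPKM, are not drawn; *Tead2* stands highest and *Ccn2* lowest of those shown.

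The first question was whether the stiffer gel changed these genes. Values from here on are CPM on TMM-scaled library totals, and fold changes are on the log2 scale as 1.5 mM over 1.0 mM. With edgeR and a Benjamini-Hochberg adjusted p below 0.05 as the call, 0 of the 9 genes were called at 72 h and 0 at 96 h, where the percentage called among all genes was 0 in each. At an unadjusted p below 0.05, 3 of 9 genes were lower in the stiffer gel at 72 h, against 2.9% of all genes, and 3 of 9 at 96 h, against 4.91%. limma-voom called 0 in both, and DESeq2 called 1, *Amotl2*, in both. The share of all genes that DESeq2 called is not given here, so this call cannot be set against it. The embedding-time comparisons below use the same libraries in other pairs.

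*Amotl2* gave the smallest p between gels among the 9 genes, at each embedding time. Embedded at 72 h, it stood at 56.9, 49.2 and 57.9 CPM in the 3 libraries of the 1.0 mM gel and at 39.6, 37.3 and 32.6 CPM in those of the 1.5 mM gel. Embedded at 96 h, the values were 73.0, 59.0 and 64.6 CPM in 1.0 mM and 52.8, 53.2 and 40.2 CPM in 1.5 mM. Every library of the stiffer gel lay below every library of the softer gel of the same embedding time.

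The difference of *Amotl2* was -0.59 at 72 h (SE 0.103, edgeR adjusted p = 0.698) and -0.43 at 96 h (SE 0.110, adjusted p = 0.253). Over both embedding times it was -0.50 (SE 0.0829, adjusted p = 0.0516), which ranked 6 among 16388 genes and missed the threshold. Over both times 5 genes passed, 0.0305% of those tested, and none was among the 9. At an unadjusted p below 0.05 over both times, 4 of the 9 were lower in the stiffer gel (*Amotl2*, *Ajuba*, *Lats2* and *Axl*) against 5.63% of all genes, and none was higher. DESeq2 called 2 of the 9 over both times, *Amotl2* at an adjusted p of 3.08e-05 and *Ajuba* at 0.00883, and limma-voom called 0. Without the library richest in CT010467.1 in each 1.5 mM group, the *Amotl2* difference was -0.57 (edgeR adjusted p = 0.0728). It passed without replicate 2 of the 72 h 1.0 mM group (0.0422) and without replicate 1 of the 72 h or the 96 h 1.5 mM group (0.0327 and 0.0445). When the fit was blocked on replicate number, *Amotl2* passed at 72 h (adjusted p = 0.0458), at 96 h (0.00866) and over both times (0.00738), *Ajuba* over both times (0.0377) and *Axl* at 96 h (0.0477). The shares of all genes called by DESeq2, by the blocked fits or without a library are not given here.

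*Ajuba* showed the same order with a smaller difference. At 72 h it stood at 72.6, 63.9 and 78.2 CPM in 1.0 mM and at 62.0, 54.5 and 54.6 CPM in 1.5 mM. At 96 h it stood at 77.7, 68.1 and 73.8 CPM and at 65.7, 61.9 and 63.0 CPM. The gels did not overlap at either time, although the gap at 72 h was narrow (63.9 against 62.0 CPM). The differences were -0.33 (SE 0.101, edgeR adjusted p = 0.698) and -0.20 (SE 0.0674, adjusted p = 0.360), and over both times -0.27 (SE 0.0604, adjusted p = 0.117). *Amotl2* and *Ajuba* were thus 2 of 9 genes that were lower without overlap at both embedding times, against 0.964% of all genes.

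*Ccn1* was lower in the stiffer gel after embedding at 72 h, with 19.4, 14.5 and 14.6 CPM in 1.0 mM against 9.77, 11.8 and 8.02 CPM in 1.5 mM. The difference was -0.71 (SE 0.177, edgeR adjusted p = 0.698), and the groups did not overlap. After embedding at 96 h the values were 22.3, 12.0 and 15.9 CPM in 1.0 mM and 17.0, 20.5 and 13.1 CPM in 1.5 mM, with groups that overlapped and a difference of 0.01 (95% interval -0.43 to 0.45, unadjusted). The test of whether the gel difference itself differed between embedding times gave -0.72 (SE 0.310, adjusted p = 0.953), and 0 of the 9 genes were called in that test, against 0% of all genes. *Ccn1* was the only 1 of the 9 with an unadjusted p below 0.05 there, against 4.32% of all genes, and DESeq2 and limma-voom called 0.

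*Ccn2* did not follow *Ccn1*. It stood at 4.49, 2.57 and 4.03 CPM in 1.0 mM and 2.66, 4.004 and 4.13 CPM in 1.5 mM at 72 h, groups that overlapped. At 96 h it stood at 4.63, 3.13 and 3.82 CPM and at 4.27, 8.58 and 4.397 CPM. Replicate 2 of the 96 h 1.5 mM group stood apart from the other 11 libraries, and it is the library with 4.21% of counts on CT010467.1. The gel difference at 96 h was 0.57 (SE 0.265, adjusted p = 0.504) and 0.17 without that library.

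*Lats2* stood at 18.9, 18.9 and 19.4 CPM in 1.0 mM and 17.0, 15.6 and 16.9 CPM in 1.5 mM at 72 h, and at 17.0, 19.1 and 19.5 CPM and 16.1, 17.1 and 14.8 CPM at 96 h. Its difference was -0.21 at each time (SE 0.106 and 0.103), and -0.21 over both (SE 0.0646, edgeR adjusted p = 0.209). The groups did not overlap at 72 h and overlapped narrowly at 96 h (17.0 against 17.1 CPM). *Lats1* stood at 75.2, 77.3 and 76.9 CPM in 1.0 mM and 83.0, 79.3 and 83.6 CPM in 1.5 mM at 72 h, the only one of the 9 genes that was higher without overlap there, with a difference of 0.10 (SE 0.0762, adjusted p = 0.779). In all, 5 of 9 genes did not overlap between gels at 72 h (*Ccn1*, *Amotl2*, *Lats2* and *Ajuba* lower, *Lats1* higher) against 11.1% of all genes in either direction. At 96 h 2 of 9 did not overlap, both lower, against 15.6%.

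*Axl* stood at 21.7, 18.9 and 23.5 CPM in 1.0 mM and 20.0, 19.1 and 19.7 CPM in 1.5 mM at 72 h. At 96 h it stood at 30.9, 24.9 and 27.1 CPM and at 25.0, 19.3 and 21.4 CPM, where only 1 pair of libraries broke the order. The difference was -0.13 at 72 h (SE 0.114) and -0.33 at 96 h (SE 0.113, edgeR adjusted p = 0.375). *Amotl1* ranged from 137 to 197 CPM over all libraries and *Crim1* from 8.73 to 16.1 CPM, and both overlapped between gels at each time. Their differences over both times were 0.02 (95% interval -0.16 to 0.20) and 0.10 (-0.17 to 0.36), with unadjusted intervals.

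**Figure D2:**
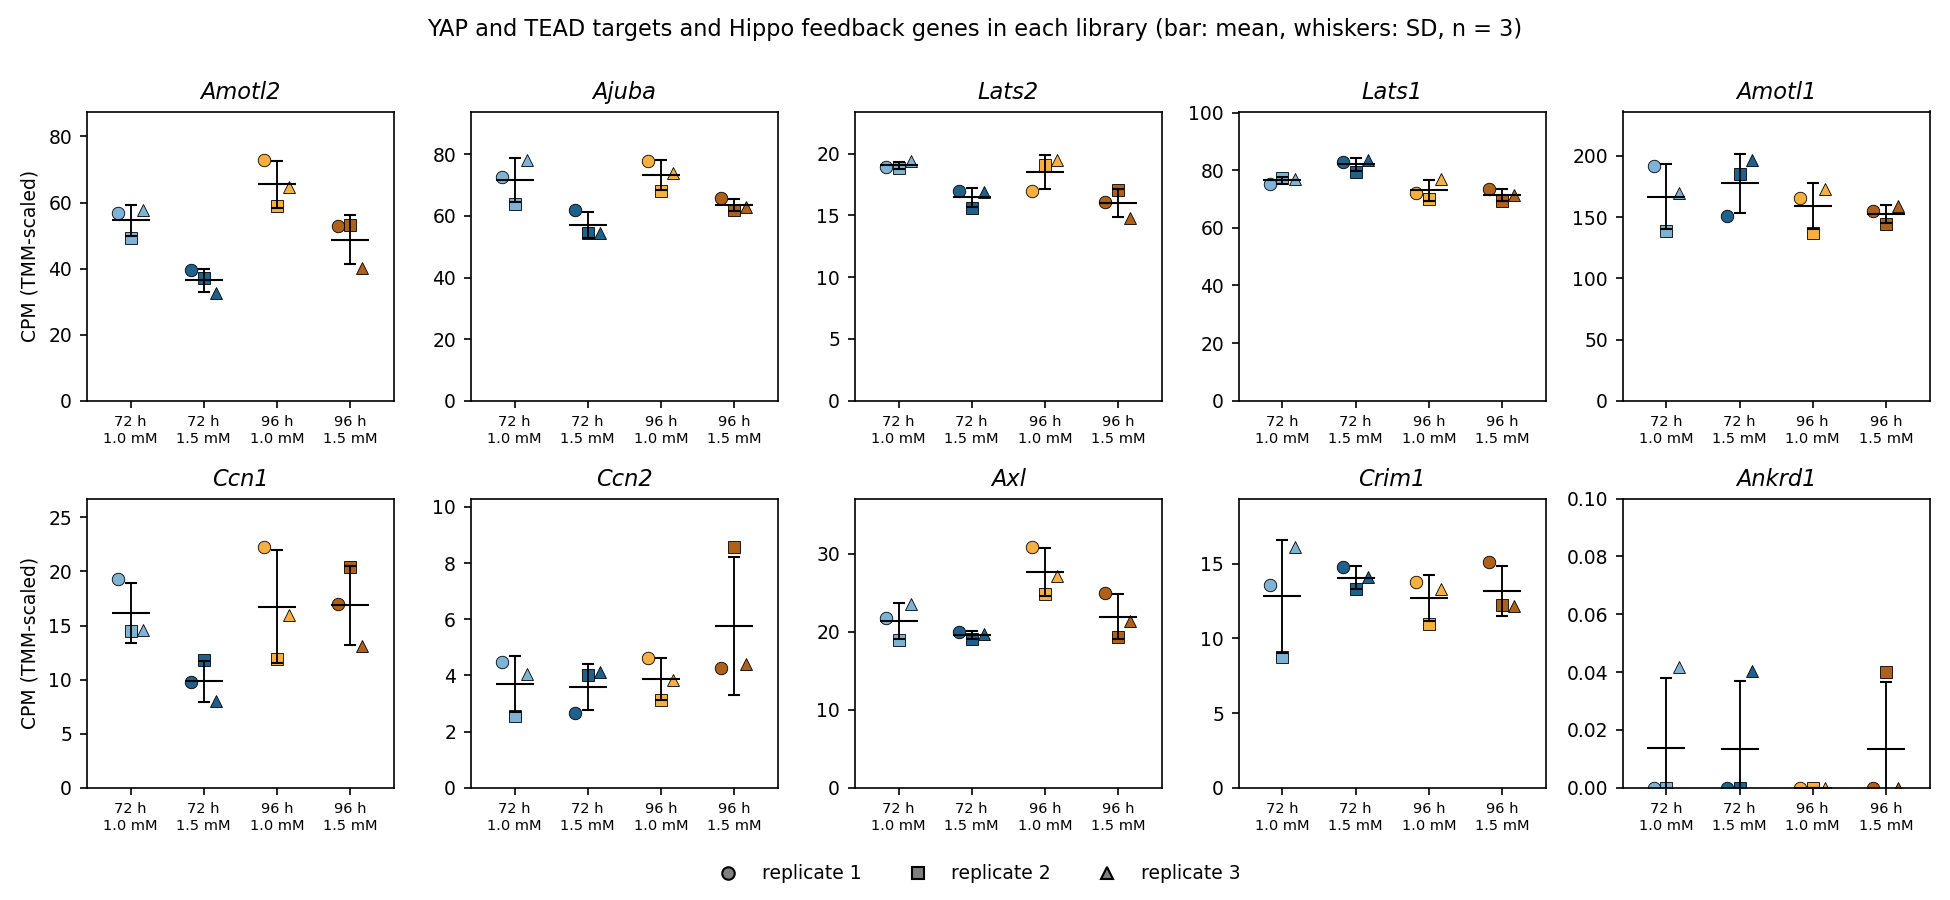
CPM of each of the 10 genes in every library by embedding time and gel, with a bar at the mean and whiskers of 1 SD (n = 3). *Amotl2* and *Ajuba* lay lower in 1.5 mM than in 1.0 mM gels at both embedding times without overlap, and *Ankrd1* was at 0 in 9 of 12 libraries.

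Ratios within a library do not depend on scaling between libraries. These 3 ratios were chosen after the values were seen and carry no test. *Amotl2* over *Amotl1* counts was 0.297, 0.354 and 0.342 in 1.0 mM and 0.262, 0.202 and 0.166 in 1.5 mM at 72 h. At 96 h the ratio was 0.440, 0.429 and 0.373 in 1.0 mM and 0.341, 0.368 and 0.254 in 1.5 mM. It was lower in the stiffer gel without overlap at each time, although the gap at 96 h was narrow (0.373 against 0.368). The log2 difference was -0.68 at 72 h and -0.38 at 96 h.

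*Lats2* over *Lats1* was 0.252, 0.244 and 0.252 in 1.0 mM against 0.204, 0.196 and 0.202 in 1.5 mM at 72 h, a separation wider than the spread within either group. At 96 h it was 0.235, 0.273 and 0.254 against 0.219, 0.246 and 0.208, and the groups overlapped. *Ccn1* over *Ccn2* ran from 1.94 to 5.62, with log2 differences between gels of -0.69 at 72 h and -0.48 at 96 h. The gels overlapped narrowly at 72 h (3.62 in 1.0 mM against 3.67 in 1.5 mM) and at 96 h (3.82 against 3.98).

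**Figure D3:**
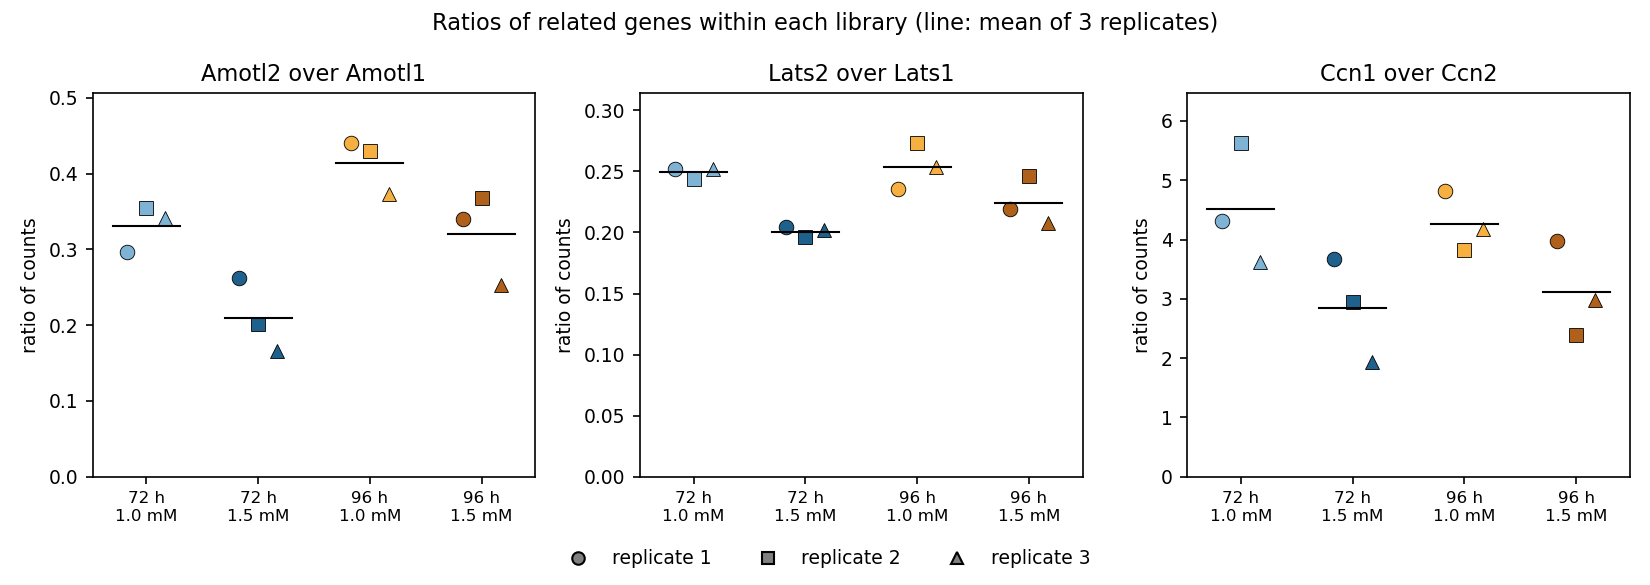
Ratios of counts of related genes within each library, from 0, with a line at the mean of 3 replicates. *Amotl2* over *Amotl1* lay lower in the 1.5 mM gel at both embedding times and *Lats2* over *Lats1* at 72 h, without overlap. *Ccn1* over *Ccn2* lay mostly lower in the 1.5 mM gel but overlapped narrowly at both times.

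Immediate-early genes, which respond to growth factors and stress within minutes and include the AP-1 and EGR factors, lay lower in the stiffer gel. All 13 tested of a list of 14 lay below 0 at 72 h and at 96 h, with median differences of -0.595 and -0.561 against -0.002 and -0.005 for all genes. With edgeR 0 were called in either comparison, and 9 and 10 were lower at an unadjusted p below 0.05, against 2.9% and 4.91% of all genes. The summed level of the list was 306 to 591 CPM in 1.0 mM and 231 to 259 CPM in 1.5 mM at 72 h, and 336 to 643 CPM and 261 to 273 CPM at 96 h. *Egr1*, the only one called over both times (-2.18, SE 0.319, edgeR adjusted p = 0.0257), reached its highest values in replicate 1 of the 1.0 mM groups, 113 CPM at 72 h and 132 CPM at 96 h, the libraries in which *Ccn1* was also highest within each of these groups. *Fos* showed the same peaks, 79.3 and 57.1 CPM against at most 16.4 CPM elsewhere. *Egr1* and *Ccn1* peaked in different libraries in each 1.5 mM group. There *Egr1* was highest in replicate 1 (23.9 CPM for the 72 h group, 21.7 CPM for the 96 h group). *Ccn1* was highest in replicate 2 of these groups (11.8 CPM and 20.5 CPM, in the same order). *Ccn1* itself is known as an immediate-early gene. The part of these genes in the gel differences of *Ccn1*, *Amotl2* and *Ajuba* was not tested.

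Several lists of cell type markers lay mostly on 1 side of 0 between gels, although 0 of their genes were called with edgeR. At 72 h 12 of 13 cardiac markers lay below 0, with a median of -0.369, and 2 were lower at an unadjusted p below 0.05, against 2.9% of all genes. The summed level of the cardiac markers was 580 to 1202 CPM in 1.0 mM and 450 to 952 CPM in 1.5 mM. All 8 endoderm markers lay below 0 at 72 h, with a median of -0.272, 4 of them at an unadjusted p below 0.05, against 2.9% of all genes lower. They summed to 525 to 607 CPM in 1.0 mM against 389 to 497 CPM in 1.5 mM. At 96 h the cardiac markers lay the other way, all 13 above 0 with a median of 0.83 and 8 higher at an unadjusted p below 0.05, against 5.04% of all genes. They summed to 83.3 to 260 CPM in 1.0 mM and 244 to 411 CPM in 1.5 mM. All 8 pluripotency markers lay below 0 at 96 h, with a median of -0.461 and 5 lower at an unadjusted p below 0.05, against 4.91% of all genes. They summed to 107 to 144 CPM against 83.5 to 98.8 CPM. Of 8 somite markers 7 lay above 0 at 72 h (median 0.327) and 7 below 0 at 96 h (median -0.163). At 96 h all 8 endothelial markers lay above 0 (median 0.217). Below 0 there lay 7 of 8 endoderm markers (median -0.209) and 4 of 6 tested tail bud markers (median -0.493). The part of these markers in the gel differences of *Amotl2*, *Ajuba*, *Ccn1* and *Axl* was not tested.

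The second question was whether earlier embedding changed the genes. Fold changes here are 72 h over 96 h. In 1.0 mM gels 0 of the 9 genes were called with edgeR, against 9.24% of all genes, and 2 (*Amotl2* and *Axl*) had an unadjusted p below 0.05, against 22.9%. DESeq2 and limma-voom also called 0. In 1.5 mM gels 2 of the 9 were called, both lower after embedding at 72 h, against 8.98% of all genes lower and 19.3% in either direction. Over both gels 3 were called, against 31.1%. In no comparison of embedding time was the share called among the 9 far from that of all genes. None of the 9 passed the thresholds of the study's rule for DE genes, which also asks for an absolute log2 fold change above 1. The thresholds were applied here to the edgeR fits, whereas the study applied them to DESeq2. In the edgeR fits 4.3% of all genes passed for embedding time in 1.0 mM, 3.18% in 1.5 mM and 4.66% over both gels. For gel concentration 0%, 0% and 0.0061% passed at 72 h, at 96 h and over both times. The study, with DESeq2, reported a few DE genes between gels at each embedding time.

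In 1.5 mM gels *Ccn1* fell by 0.78 in log2 units with embedding at 72 h (SE 0.186, edgeR adjusted p = 0.0202), from 16.9 ± 3.67 to 9.86 ± 1.89 CPM (mean ± SD, n = 3), and the libraries given above did not overlap. The call was lost without replicate 3 of the 72 h group (adjusted p = 0.0733) and without replicate 1 or 2 of the 96 h group (0.0525 and 0.0807). It was also lost without the CT010467.1-rich library of each 1.5 mM group (-0.62, adjusted p = 0.0533). Over both gels *Ccn1* was not called, and it passed without replicate 1 of the 72 h 1.0 mM group (-0.51, adjusted p = 0.0372), without replicate 2 of the 96 h 1.0 mM group (-0.53, adjusted p = 0.0241) and with no filter on low counts (-0.40, adjusted p = 0.000586). In 1.0 mM gels its difference was -0.05 (95% interval -0.50 to 0.40). *Ccn2* lay lower in 1.5 mM gels without overlap, by a difference of -0.68 (SE 0.296, adjusted p = 0.136) that became -0.27 without replicate 2 of the 96 h group. Non-overlap in this comparison held for 20% of all genes in each direction.

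*Amotl2* was lower after embedding at 72 h in both gels without overlap, as were 7.51% of all genes. It fell by 0.42 in log2 units in the stiffer gel (SE 0.118, edgeR adjusted p = 0.0351). Leaving out replicate 2 or 3 of the 72 h group gave adjusted p-values of 0.0807 and 0.121, and leaving out replicate 1 or 2 of the 96 h group gave 0.0999 and 0.129. In 1.0 mM gels its difference was -0.26 (SE 0.1002, adjusted p = 0.151). Over both gels it fell by 0.34 (SE 0.0828, adjusted p = 0.00657). Its lowest group mean, 36.5 ± 3.56 CPM, was that of early embedding in the stiffer gel, and its highest, 65.5 ± 7.04 CPM, that of late embedding in the softer gel.

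*Axl* was lower after early embedding in 1.0 mM gels, where its libraries and those of *Amotl2* did not overlap, against 13.8% of all genes lower without overlap. The difference was -0.36 (SE 0.121, edgeR adjusted p = 0.0910). When the fit was blocked on replicate number, *Axl* passed in that comparison (adjusted p = 0.0327) and was the only 1 of the 9 that did. In 1.5 mM gels its difference was -0.17 (SE 0.107, adjusted p = 0.301). Over both gels it fell by 0.27 (SE 0.0834, adjusted p = 0.0245), a call lost without replicate 1 of either 96 h group (0.0636 without that of 1.0 mM and 0.0594 without that of 1.5 mM).

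*Lats1* was the only one of the 9 called higher with early embedding. Its difference in the stiffer gel was 0.19 without overlap (SE 0.0610, edgeR adjusted p = 0.0518; 0.0428 when blocked on replicate number, which brought the genes called there to 3). Over both gels it rose by 0.13 (SE 0.0456, adjusted p = 0.0379), a call that leaving out any 1 of 8 libraries ended, the highest adjusted p being 0.0995 without replicate 2 of the 96 h 1.5 mM group. The group means ran from 71.4 ± 2.12 CPM for late embedding in 1.5 mM to 82.0 ± 2.33 CPM for early embedding in 1.5 mM. The call was also lost without the 2 libraries richest in CT010467.1 (0.148).

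*Lats2*, *Ajuba*, *Amotl1*, *Ccn2* and *Crim1* were not called for embedding time with all libraries. *Amotl1* lay above 0 in both gels, at 0.07 in 1.0 mM (SE 0.121, edgeR adjusted p = 0.765) and 0.21 in 1.5 mM (SE 0.0925, adjusted p = 0.138). In the stiffer gel it passed without replicate 1 of the 72 h group (0.31, adjusted p = 0.00459) and without both CT010467.1-rich libraries (0.27, adjusted p = 0.0154), and over both gels without replicate 2 of the 72 h 1.0 mM group (0.20, adjusted p = 0.0480). *Ajuba* passed as lower in the stiffer gel under the same 2 omissions there (-0.23 and -0.25, edgeR adjusted p = 0.0288 and 0.0393). *Ccn2* passed there when no filter on low counts was used (-0.67, adjusted p = 0.0304). The difference of *Lats2* over both gels was 0.04 (95% interval -0.10 to 0.18) and that of *Crim1* 0.05 (-0.21 to 0.32).

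**Figure D4:**
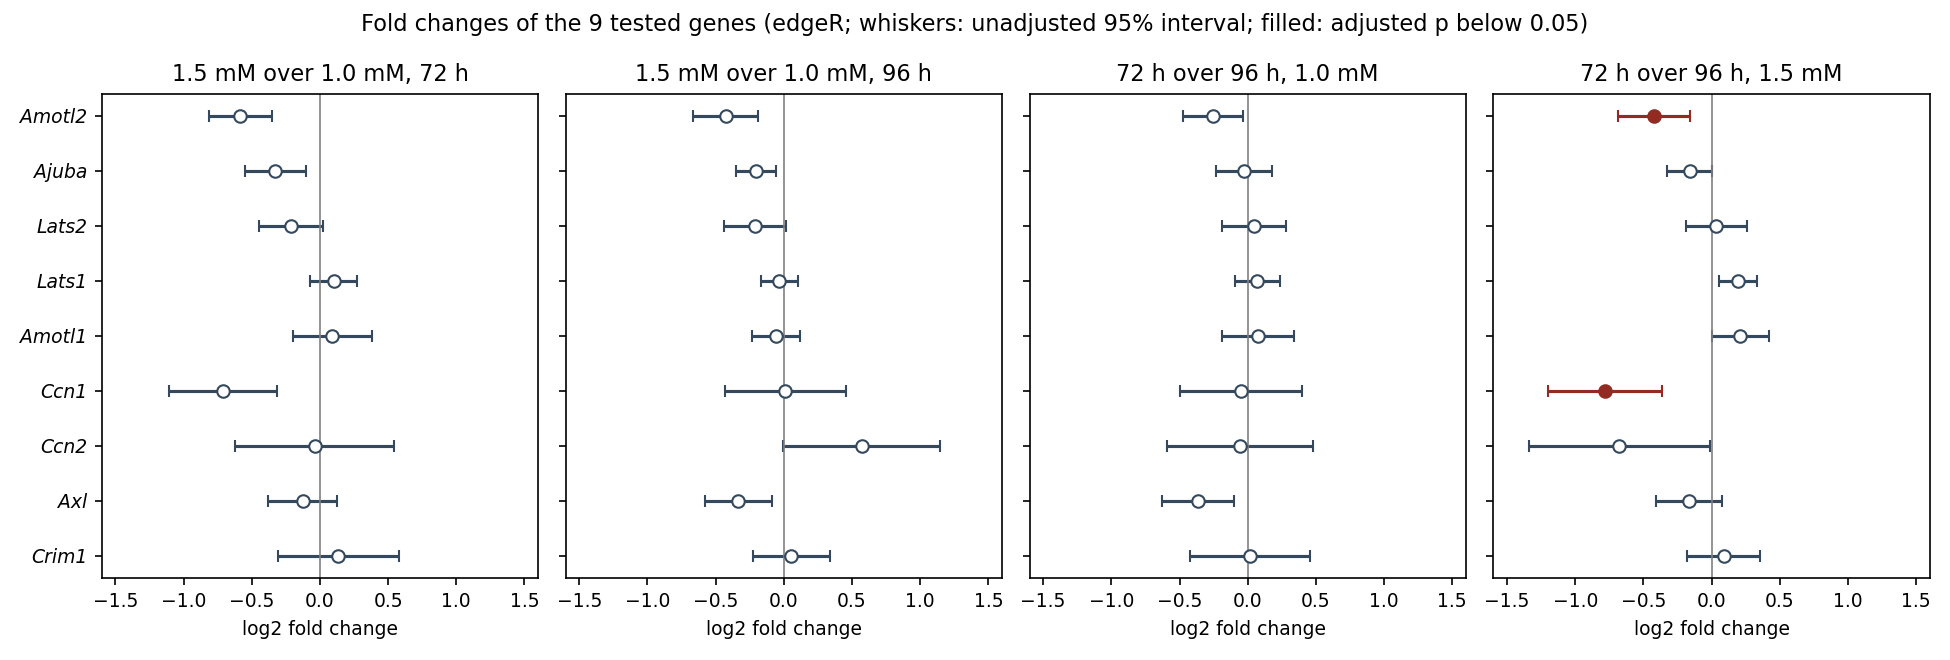
Log2 fold changes of the 9 tested genes in the 4 pairwise comparisons, with unadjusted 95% intervals from edgeR and filled symbols for an adjusted p below 0.05. The filled symbols are *Ccn1* and *Amotl2* for embedding time in the 1.5 mM gel, at -0.78 and -0.42.

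Cell type markers moved with embedding time. The 13 cardiac markers summed to 580 to 1202 CPM at 72 h and 83.3 to 260 CPM at 96 h in 1.0 mM gels, and to 450 to 952 CPM and 244 to 411 CPM in 1.5 mM gels. The 8 somite markers moved the other way, from 340 to 599 CPM at 72 h against 995 to 1142 CPM at 96 h in 1.0 mM and from 436 to 673 CPM against 823 to 1069 CPM in 1.5 mM. The 8 pluripotency markers summed to 34.3 to 43.3 CPM at 72 h and 107 to 144 CPM at 96 h in 1.0 mM, and to 31.9 to 39.1 CPM and 83.5 to 98.8 CPM in 1.5 mM. Endoderm markers summed to 525 to 607 CPM at 72 h against 367 to 414 CPM at 96 h in 1.0 mM gels. In 1.5 mM gels they summed to 389 to 497 against 294 to 392 CPM, ranges that overlapped. Of the 8 endothelial markers, whose cells commonly express *Ccn1* and *Ccn2*, 6 lay below 0 in 1.5 mM gels, with a median of -0.611, and 2 were called lower, *Tie1* (-0.98, SE 0.281, edgeR adjusted p = 0.0387) and *Emcn* (-1.68, SE 0.303, adjusted p = 0.00754). Of all genes 8.98% were called lower in that comparison. The sum of the endothelial markers overlapped, at 246 to 374 CPM after 72 h and 312 to 358 CPM after 96 h, and *Kdr*, with 214 ± 31.7 and 181 ± 7.01 CPM, made up most of it. After early embedding 6 of the 8 also lay below 0 in 1.0 mM gels, with a median of -0.418. There 1 was called lower (*Esam*) and 1 higher (*Kdr*), against 9.24% of all genes called in either direction. Tail bud markers summed to 253 to 323 CPM at 72 h against 118 to 175 CPM at 96 h in 1.0 mM gels. In 1.5 mM gels these sums were 206 to 259 against 98.4 to 111 CPM. Yet 4 of 6 tested tail bud markers lay below 0 in each gel. Neural markers summed to 119 to 138 against 93.6 to 114 CPM in 1.0 mM gels. In 1.5 mM gels the neural sums were 133 to 151 against 103 to 125 CPM, with genes on both sides of 0 in each gel. The part of all these markers in the embedding-time values of *Ccn1*, *Amotl2*, *Axl* and *Lats1* was not tested.

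The other genes of the pathway were examined in lists. Of 18 upstream Hippo genes 6 rose and 1 fell with early embedding in the 1.5 mM gel, 7 called against 19.3% of all genes, with a median difference of 0.21 against -0.01 for all genes. They included *Stk4*, which encodes the kinase MST1, at 62.7 ± 6.87 against 46.1 ± 3.23 CPM (0.44, SE 0.0905, edgeR adjusted p = 0.0121). *Mob1b*, a LATS activator, stood at 71.5 ± 2.51 against 52.4 ± 2.46 CPM (0.44, SE 0.0657, adjusted p = 0.00401). *Taok1*, a kinase upstream of MST, rose by 0.43 (SE 0.0718, adjusted p = 0.00574) and *Wtip*, an AJUBA-family LIM protein, fell by 0.48 in log2 units (SE 0.110, adjusted p = 0.0171).

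In 1.0 mM gels 1 of the 18 upstream genes rose and none fell, against 9.24% of all genes called, with a median of 0.13. It was *Amot*, the third angiomotin gene, at 256 ± 83.9 CPM after embedding at 72 h and 125 ± 13.9 CPM after 96 h (1.04, SE 0.188, edgeR adjusted p = 0.00567). *Amot* met the thresholds of the study's DE rule in this fit. *Amotl2* lay in the opposite direction in the same libraries. Over both gels 9 of the 18 rose, against 16.2% of all genes, and 1 fell, against 14.8%.

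Among the 7 tested of the 10 genes of YAP, TAZ, TEAD and VGLL, *Tead1* rose with early embedding in both gels. It stood at 270 ± 43.7 against 179 ± 5.54 CPM in 1.0 mM (0.60, SE 0.108, edgeR adjusted p = 0.00565) and at 250 ± 34.6 against 187 ± 18.2 CPM in 1.5 mM (0.42, SE 0.105, adjusted p = 0.0247). In the stiffer gel, *Vgll4* rose by 0.55 (SE 0.156, adjusted p = 0.0386) and *Tead3* fell by 0.27 (SE 0.0639, adjusted p = 0.0185). Of the 7, 1 was thus called higher in 1.0 mM gels, against 9.24% of all genes called. In 1.5 mM gels 2 were called higher and 1 lower, against 19.3%. *Yap1* had differences of 0.08 and 0.19 (adjusted p = 0.644 and 0.0695) and *Wwtr1* of 0.10 and 0.22 (0.674 and 0.0723), none of which passed. Between gels 0 of these genes were called with edgeR, and 0 had an unadjusted p below 0.05 at either time.

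Of 15 other reported YAP targets, 1 rose and 2 fell in 1.0 mM gels, against 9.24% of all genes called, and 1 rose and 1 fell in 1.5 mM gels, against 19.3%. In 1.0 mM gels *Tgfb2*, a TGFβ ligand, rose by 0.70 (SE 0.175, edgeR adjusted p = 0.0292), while *Nuak2*, a stress-related kinase, fell from 17.7 ± 1.08 to 7.83 ± 1.72 CPM (-1.17, SE 0.158, adjusted p = 0.00127) and *Dock5*, a guanine exchange factor, fell by 0.56 in log2 units (SE 0.127, adjusted p = 0.0186). After early embedding in the stiffer gel *Myof*, a membrane repair protein, rose by 0.85 (SE 0.202, adjusted p = 0.0197) and *Igfbp3*, a binding protein of insulin-like growth factors, fell by 0.68 (SE 0.104, adjusted p = 0.00427). Their medians were 0.12 and 0.11, and those of the 9 tested targets and feedback genes were -0.03 and -0.16, each against -0.01 for all genes.

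Of a list of relatives of the 10 genes, family members and the *Axl* ligands *Gas6* and *Pros1*, 6 were tested for embedding time. In 1.0 mM gels 1 was called higher, against 9.24% of all genes called in either direction. In 1.5 mM gels 1 was called higher and 1 lower, against 19.3%. *Tyro3*, a receptor of the same family as *Axl*, rose in both gels, by 0.28 (SE 0.0782, edgeR adjusted p = 0.0469) and 0.22 (SE 0.0642, adjusted p = 0.0398). *Axl* lay below 0 in both. *Ankrd23*, a relative of *Ankrd1*, fell by 0.49 in 1.5 mM gels (SE 0.116, adjusted p = 0.0199). Of 14 SRF and actin genes, *Tpm1*, a tropomyosin, rose in 1.0 mM gels (0.40, SE 0.0881, adjusted p = 0.0159). It was the only 1 called of the 14, against 9.24% of all genes. Of the 13 tested in 1.5 mM gels, *Srf* and *Actg1* rose by 0.34 and 0.33, and *Myl9*, a myosin light chain, fell by 0.64 on the log2 scale. These 2 called higher and 1 called lower of 13 stand against 19.3% of all genes called in either direction. Of 13 tested immediate-early genes 0 were called for embedding time in 1.0 mM gels with edgeR, against 9.24% of all genes. At an unadjusted p below 0.05 there were 2, against 22.9%. In the stiffer gel *Atf3*, *Junb* and *Ier2* fell, by 0.98, 0.62 and 0.23, and *Btg2* rose by 0.40. These 3 called lower and 1 called higher of 13 stand against 19.3% of all genes called in either direction.

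**Figure D5:**
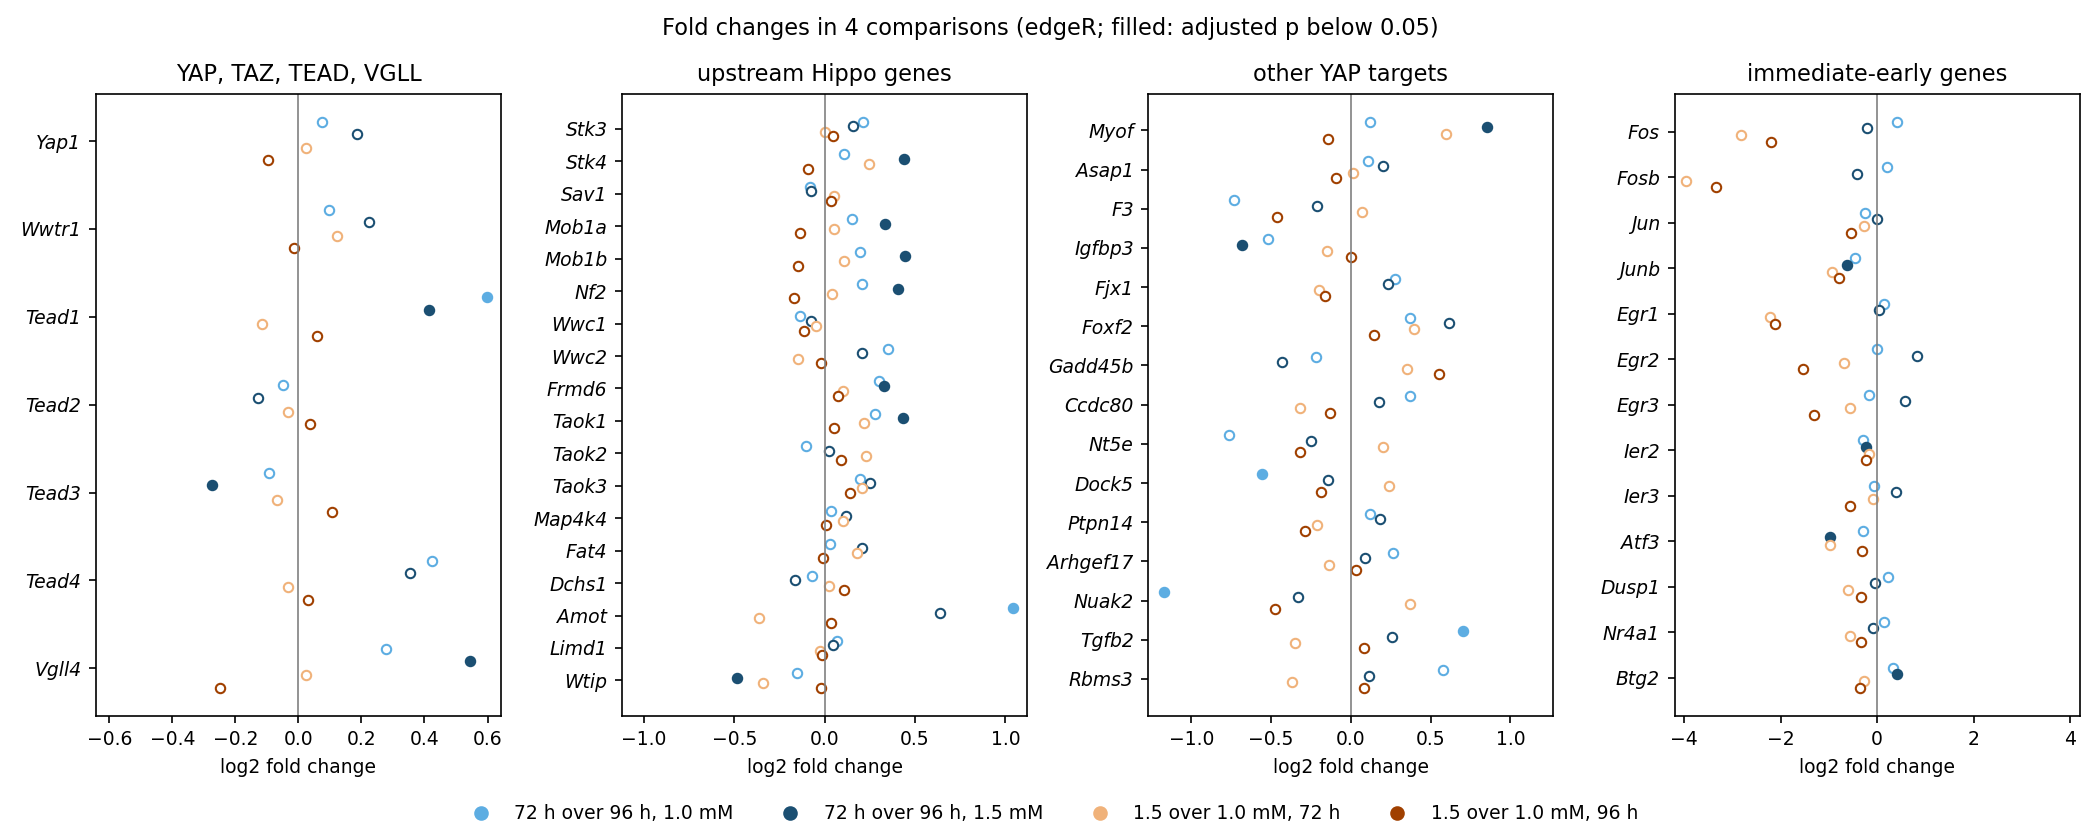
Log2 fold changes from edgeR of YAP, TAZ, TEAD and VGLL genes, upstream Hippo genes, other YAP targets and immediate-early genes, in 4 comparisons shown by colour, with filled symbols for an adjusted p below 0.05. *Tead1* is filled for embedding time in both gels, and no symbol is filled for gel concentration, where all 13 immediate-early genes lie below 0.

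The genes whose levels followed each gene most closely over the 12 libraries were found from log2 CPM centred on each gene's mean. Nearest to *Amotl2* was *Erbb3*, a receptor of neuregulins, at a mean absolute difference of 0.0985, while *Amotl2* itself spanned 1.16 on this scale. *Gm49774* was among the 3 nearest of both *Amotl2* (0.102) and *Ccn1* (0.173). Nearest to *Ccn1* was *Gm20033* (0.147), to *Ajuba* *B3galt6* (0.0592), to *Axl* *Tedc1* (0.0697), to *Lats1* *Tmod3* (0.0303) and to *Lats2* *Arf6* (0.0519). *Lats1* spanned only 0.27 over all libraries, the narrowest of the 9, and *Ccn2* spanned 1.71, the widest.

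Some of these genes share their position with others in the GENCODE M21 annotation. *Ccn2* overlaps *Gm15270* on the opposite strand, *Crim1* overlaps *Fez2* on the opposite strand, and *Lats2* overlaps the protein-coding *Gm49361* on its own strand. *Amotl1* overlaps *4930584E12Rik* on its own strand and *Gm34263* on the opposite strand. Their counts may include or lose reads at these positions. *Ccn1*, *Amotl2*, *Ajuba*, *Axl*, *Lats1* and *Ankrd1* overlap no other annotated gene.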

How the data were processed

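Bulk RNA-seq libraries of 4 groups, 3 each, were analysed. The authors selected poly-A RNA, trimmed reads with cutadapt 4.4 and aligned them with STAR 2.7.10b to mm10 with a custom Ensembl annotation. The authors deposited raw counts per gene, not normalized, which the methods credit to STAR and the table's name to HTSeq. The libraries were stranded, and the strand setting of the counts is not given in the sources used here. The authors computed FPKM with Cufflinks 2.2.1.3. Their deposited table of DESeq2 fold changes and adjusted p-values was not used.

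From the counts, without 36 mitochondrial genes, edgeR 4.0.16 (R 4.3.3) was run with TMM, filterByExpr (minimum count 10, minimum total 15), glmQLFit and glmQLFTest, with Benjamini-Hochberg adjustment over all genes tested. Pairwise comparisons used 2 groups; those over both gels or times, and the interaction, all 12 libraries. A call is an adjusted p below 0.05. SE is the absolute log2 fold change over the root of F. FPKM served for levels between genes. The scripts were tested on simulated data. DESeq2 1.42.0, limma 3.58.1 and the other alternatives are in the closing section.

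The 10 genes and all lists were chosen with earlier results of these data known. Every one of the 10 is named, with up to 4 called genes per other list and embedding-time comparison (largest absolute log2 fold change). *Egr1* and *Fos* between gels, *Yap1*, *Wwtr1* and *Kdr* were named after their values were seen. Over the 500 most variable genes, deviations of same-numbered libraries correlated at 0.183 to 0.532 between embedding times in 1.0 mM and 0.106 to 0.337 in 1.5 mM. Libraries with different numbers correlated at -0.336 to 0.176 and at -0.327 to 0.171, so the ranges overlapped in 1.5 mM. Replicate numbers were taken to pair libraries across embedding times, but the main fits were not blocked on them. Blocked fits are given as an alternative.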

Additional observations from a re-analysis of the deposited data

How the results depend on the processing

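Each group had 3 libraries, and the parts of library number and of depth in the precision were not separated. DESeq2, limma-voom, RLE size factors, other filters, mitochondrial genes, the replicate block, a joint fit, FPKM, stricter rules and leaving out each library gave 1134 refitted values, of which 1026 kept direction and side of the threshold, 32 newly passed it, 23 no longer did and 53 changed sign. Leaving out the 2 libraries richest in CT010467.1 was added after seeing the data. The cause of each change was not tested, except that leaving out libraries leaves fewer samples. In 1.0 mM gels the replicate block brought genes called for embedding time from 0 to 1. In 1.5 mM gels (2 called) an adjusted p below 0.01 and the study's DE rule each gave 0 and limma on FPKM 1, and single-library omissions 0 to 4. Over both gels (3 called) these gave 1, 0 and 1, and omissions 1 to 4. For gel concentration (0 called), DESeq2 gave 1 at 72 h, 1 at 96 h and 2 over both times, no filter on low counts 2, 1 and 3, and the replicate block 1, 2 and 2 (*Amotl2* in each, with *Axl* at 96 h and *Ajuba* over both). Between gels same-numbered libraries correlated at -0.021 to 0.226 at 72 h and 0.095 to 0.411 at 96 h, not all over 0.1, so numbers were not taken as pairs there, although 72 h 1.0 mM and 96 h 1.5 mM libraries of the same number correlated at 0.194 to 0.439 and the other crossing at -0.033 to 0.033. Omissions gave 0 to 1 over both times. For the interaction, no filter gave 1. The block changed no call beyond those named here and in the report. The shares of all genes called under these alternatives are not given here. These counts therefore do not show whether the tested genes differ from all genes.

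Changes of sign concerned differences that were not called. For embedding time in 1.0 mM gels, omissions spanned -0.23 to 0.21 for *Ccn1*, -0.22 to 0.15 for *Ccn2*, -0.037 to 0.19 for *Amotl1*, -0.017 to 0.083 for *Lats2*, -0.095 to 0.049 for *Ajuba* and -0.18 to 0.23 for *Crim1*. *Crim1* there was -0.026 with limma-voom, -0.011 with the replicate block and -0.011 with FPKM. In 1.5 mM gels omissions spanned -0.016 to 0.086 for *Lats2*, and *Crim1* was -0.0047 without the CT010467.1-rich libraries. Over both gels *Crim1* spanned -0.028 to 0.15. Between gels at 72 h, omissions spanned -0.028 to 0.20 for *Amotl1*, -0.24 to 0.13 for *Ccn2* (0.13 without the CT010467.1-rich library) and -0.079 to 0.34 for *Crim1*. At 96 h they spanned -0.18 to 0.27 for *Ccn1* (-0.15 without the rich library, -0.022 with FPKM), -0.15 to 0.0094 for *Amotl1*, -0.060 to 0.005 for *Lats1* and -0.040 to 0.12 for *Crim1* (-0.0053 with FPKM). Over both times they spanned -0.045 to 0.059 for *Amotl1* (-0.014 with FPKM) and -0.0061 to 0.17 for *Crim1*. For the interaction, *Lats2* spanned -0.051 to 0.060 and was 0.001 with DESeq2, 0 with limma-voom, 7e-04 with RLE, 0.0067 without the rich libraries and 0.034 with FPKM, and *Crim1* spanned -0.14 to 0.27 and was -0.026 without the rich libraries.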

Other observations

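The list of family members and *Axl* ligands and the SRF and actin list showed no call between gels. Of 14 tested SRF and actin genes 1 had an unadjusted p below 0.05 between gels at 72 h, and the summed level of the list was 5968 to 6055 CPM in 1.0 mM and 5743 to 6151 CPM in 1.5 mM, ranges that overlapped. The 18 upstream Hippo genes summed to 1611 to 1990 CPM after embedding at 72 h and 1565 to 1656 CPM after 96 h in 1.0 mM gels, which overlapped, and to 1794 to 1908 CPM and 1563 to 1681 CPM in 1.5 mM gels, which did not. The 10 targets and feedback genes summed to 393 to 474 CPM and 404 to 477 CPM in 1.0 mM gels and to 400 to 431 CPM and 399 to 425 CPM in 1.5 mM gels, after embedding at 72 h and 96 h, and all 4 ranges overlapped.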
